A study of Mus musculus with 16 samples.

Results

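Cholesterol and fatty acid synthesis was followed through 34 genes in 16 mouse hearts. The 34 were taken by name as regulators of the SREBP pathway, enzymes of the mevalonate and sterol pathways, lipogenic enzymes, and desaturases and elongases. All 34 were found among the 30153 genes of the deposited table, and 31 of them reached 1 TPM in at least 3 hearts and were tested. TPM is a transcript abundance corrected for length and rescaled to the same total in each library. The 3 that did not reach it were Lss, Sqle and Elovl6, with means over the 16 hearts of 0.606, 0.451 and 0.128 scaled TPM (TPM divided by a factor per library that aligns most genes).

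The hearts came from adult C57 mice (3) and from 3 groups of Hap-I mice: aged (4), aged and fed a western diet (5), and adult and fed a western diet (4). All are labelled as strain C57/BL6, and Hap-I mice overexpress the human angiotensin type 1 receptor, with haplotype I of its gene. The human transgene was not analysed here. The labels give no age in months, sex, promoter of the transgene, diet composition or batch. For the adult Hap-I group the series design names no diet, while the labels of its 4 samples state one; the sample labels were followed. No group is Hap-I and adult without the diet, and no C57 group is aged or on the diet. In every comparison with C57, the transgene therefore cannot be told apart from the age, the diet or both that differ with it.

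SREBP transcription factors are made as precursors in the membrane of the endoplasmic reticulum. When sterols are scarce, the escort protein SCAP carries them to the Golgi for cleavage, and when sterols are plentiful INSIG proteins hold SCAP back. The product of Srebf2 mainly drives genes of cholesterol synthesis, whereas the shorter product of Srebf1, which is under control of insulin and of the sterol-sensing receptor LXR, mainly drives genes of fatty acid synthesis. The heart takes up most of its lipid from the blood and burns fatty acids, and its malonyl-CoA, made by the enzyme that Acacb encodes, is best known as a brake on their entry into mitochondria.

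Promoter windows from RefSeq on build GRCm38.p6, from 250 bases before to 50 bases after each start, were at hand for 27 of the 34 genes. They were searched on both strands for the sterol regulatory element TCACNCCAC, the E-box CACGTG, the NF-Y box CCAAT, the GC box GGGCGG and the LXR repeat, which is GGTTA, any 5 bases and GGTCA. The letters of the last were chosen with the repeat near Srebf1 already known. The NF-Y box was in the windows of 23 of the 27 genes (85.2%), and the GC box in 21 (77.8%). Among all 27025 genes with such windows, expressed in these hearts or not, the shares were 41.06% and 38.2%. The members are mostly expressed here, and no share among expressed genes alone was taken. The E-box was in 6 (22.2%) against 8.09%, the sterol regulatory element in Hmgcs1 alone (3.7%) against 1.44%, and the LXR repeat in Fasn and Srebf1 (7.4%) against 0.05%. Of the 5 stretches that follow, Hmgcs1 is shown because it alone holds the sterol regulatory element, and its expression did not pass in any comparison. The others belong to genes that did pass: Mvd of the mevalonate pathway, Hsd17b7 of sterol synthesis, and Srebf1 and Fasn, which hold the LXR repeat. Each is written 5′ to 3′ on the strand of its gene and ends before the start of transcription. Capitals mark matches to the sterol regulatory element in Hmgcs1, the E-box in Hsd17b7, the LXR repeat in Srebf1 and Fasn, and the NF-Y box, as CCAAT or its reverse complement, in all 5. The adjoining NF-Y boxes of Fasn overlap by 2 bases.
Hmgcs1, chr13:119690101-119690350 (+): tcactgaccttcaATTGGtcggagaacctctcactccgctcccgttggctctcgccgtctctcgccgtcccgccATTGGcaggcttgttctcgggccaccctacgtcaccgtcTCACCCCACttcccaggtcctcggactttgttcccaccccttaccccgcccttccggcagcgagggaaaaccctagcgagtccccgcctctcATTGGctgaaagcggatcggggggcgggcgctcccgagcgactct
Mvd, chr8:122443423-122443542 (-): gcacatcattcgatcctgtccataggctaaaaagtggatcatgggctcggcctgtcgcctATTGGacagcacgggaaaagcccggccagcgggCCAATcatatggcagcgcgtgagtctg
Hsd17b7, chr1:169969242-169969380 (-): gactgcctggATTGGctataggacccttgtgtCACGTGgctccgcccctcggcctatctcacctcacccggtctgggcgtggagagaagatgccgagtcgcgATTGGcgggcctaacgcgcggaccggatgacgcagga
Srebf1, chr11:60210472-60210671 (-): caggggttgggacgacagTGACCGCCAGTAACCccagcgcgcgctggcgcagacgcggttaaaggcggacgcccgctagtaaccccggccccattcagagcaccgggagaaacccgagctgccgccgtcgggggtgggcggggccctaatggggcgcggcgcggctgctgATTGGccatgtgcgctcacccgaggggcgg
Fasn, chr11:120824548-120824797 (-): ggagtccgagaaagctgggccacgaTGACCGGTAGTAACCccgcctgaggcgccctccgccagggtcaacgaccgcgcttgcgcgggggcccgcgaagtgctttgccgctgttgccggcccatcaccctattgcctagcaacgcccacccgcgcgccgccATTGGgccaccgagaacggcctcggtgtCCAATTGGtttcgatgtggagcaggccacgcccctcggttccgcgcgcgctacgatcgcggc
The sterol regulatory element of Hmgcs1 begins at position -137 from the start. The Srebf1 stretch lies before the third RefSeq start of that gene, where the LXR repeat begins at position -182, and in Fasn the repeat begins at position -225. A match describes these letters and not a bound site, and the gene-level TPM do not separate the start sites of Srebf1.

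Differences are given as log2 fold changes of scaled TPM + 1 with the standard error (SE) of a limma model over all 16 hearts, and a gene rose or fell where its p, adjusted by Benjamini-Hochberg over 11415 genes, was under 0.05. Adding 1 makes these fold changes smaller than the ratios of the means for genes at low TPM. Among any of the 4 groups, 12 of the 31 genes differed (38.7%, limma F test), where 18.3% of all genes did. They were Mvd, Idi1, Fdps and Fdft1 of the mevalonate pathway, Hsd17b7, Ebp and Sc5d of sterol synthesis, the regulators Srebf1 and Srebf2, Fasn and Me1 of lipogenesis, and the desaturase Fads1. That count was 4 without C57 replicate 1 and 7 without C57 replicate 3, so it rests in part on single control hearts.

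**Figure D1:**
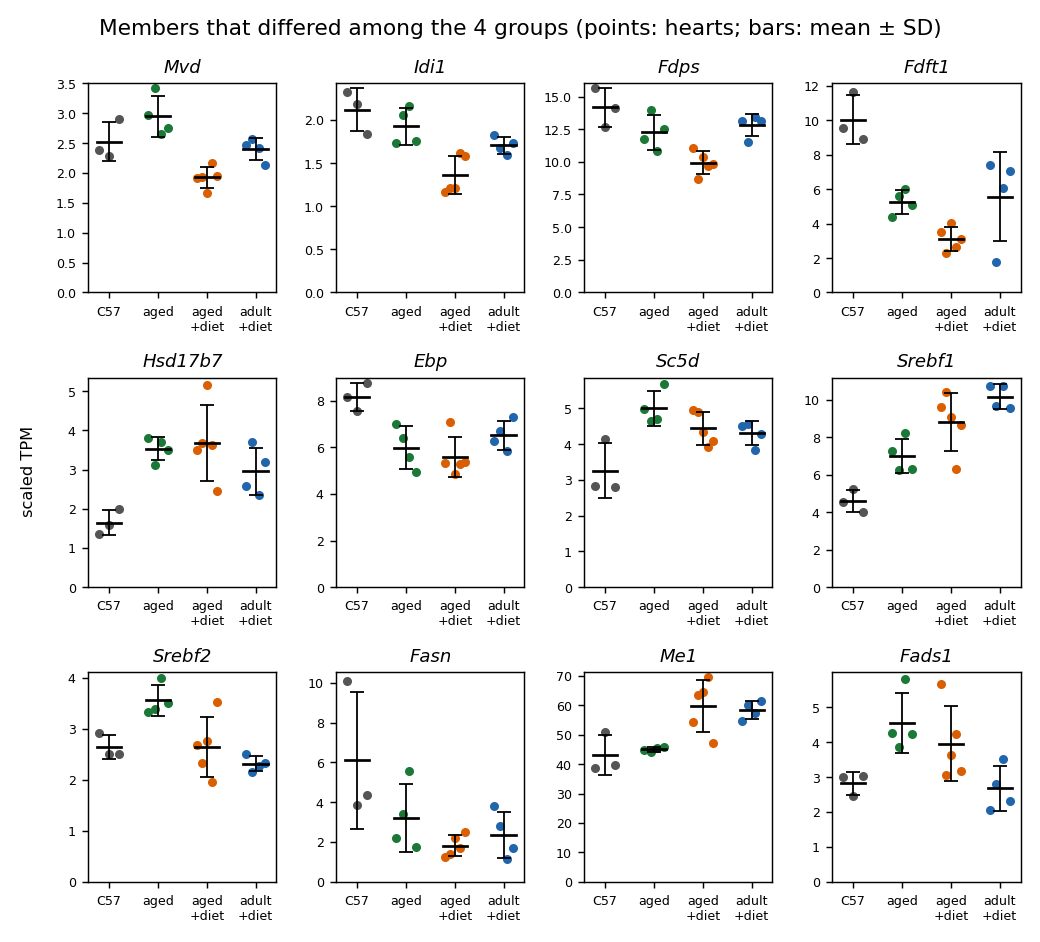
Scaled TPM (y axis, from 0) in each heart of the 4 groups (x axis) for the 12 genes that differed among the groups; points are hearts and bars give the mean ± SD. Srebf1 lies lowest in the C57 hearts, at 4.04 to 5.23, and Fdft1 highest there, at 8.92 to 11.7.

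Library-wide features that moved with the groups were these. In C57 hearts 10216 to 10586 genes reached 1 TPM, in aged hearts 10620 to 11175, in aged western-diet hearts 9896 to 11041 and in adult western-diet hearts 9553 to 10637. The rank correlation across genes of a library's deviation with transcript length was -0.293 to -0.111 in C57 hearts and 0.042 to 0.425 in aged hearts, which did not overlap, and -0.267 to 0.468 and -0.405 to 0.252 in the aged and adult western-diet hearts. With a correction for length, 4 members passed in aged and 11 in aged western-diet hearts against C57, where 9.17% and 21.3% of all genes passed. The sequencing depth is unknown, and transcripts of the mitochondrial genome made up 31.1% to 46.1% of TPM. Y-linked transcripts were absent from 5 libraries, 3 of the aged western-diet group and 2 of the adult western-diet group, and present in all others. The summed level of 6 cardiomyocyte markers was 18283 to 19023 scaled TPM in C57 hearts, 14767 to 17428 in aged, 12341 to 14446 in aged western-diet and 13445 to 15863 in adult western-diet hearts. Of the 6, Tnnt2 and Tnni3, which make up most of the sum, fell in aged western-diet hearts against C57, with log2 fold changes of -0.39 and -0.74 (limma adjusted p = 0.0294 and 0.00314), and Myh6, Actn2, Ryr2 and Pln did not pass, at -0.03, -0.42, 0.25 and 0.01. The sum of 4 fibroblast markers was 304.3 to 325.8 in C57, 209.8 to 274.6 in aged, 175.4 to 249.1 in aged western-diet and 197.1 to 266.8 in adult western-diet hearts. Most of it was Dcn, which fell in aged western-diet hearts (-0.62, limma adjusted p = 0.00533), while Pdgfra, Lum and Tcf21 did not pass, at -0.15, 0.09 and -0.31. Atrial markers summed to 49.3 to 3323 scaled TPM in C57, 3.08 to 2175 in aged, 2.33 to 31.2 in aged western-diet and 3.27 to 677 in adult western-diet hearts. All 4 fell in aged western-diet hearts against C57 (9.57% of all genes did), with a median log2 fold change of -5.47. Among C57 hearts the atrial marker Myl7 had 1831, 26.7 and 880 scaled TPM in replicates 1, 2 and 3. Schwann cell markers summed to 6.19 to 8.12, 5.67 to 8.20, 3.81 to 6.29 and 4.44 to 7.59 in the same order of groups. With the absence of Y-linked transcripts as a covariate, 3 members passed in aged and 9 in aged western-diet hearts against C57. Of all genes, 10.3% and 12.2% then passed. The part of the differences in cell type markers in the results that follow was not tested. In RNA from heart samples, fewer cells of a type and less RNA per cell cannot be told apart. Whether the samples held the same parts of the heart was not tested.

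**Figure D2:**
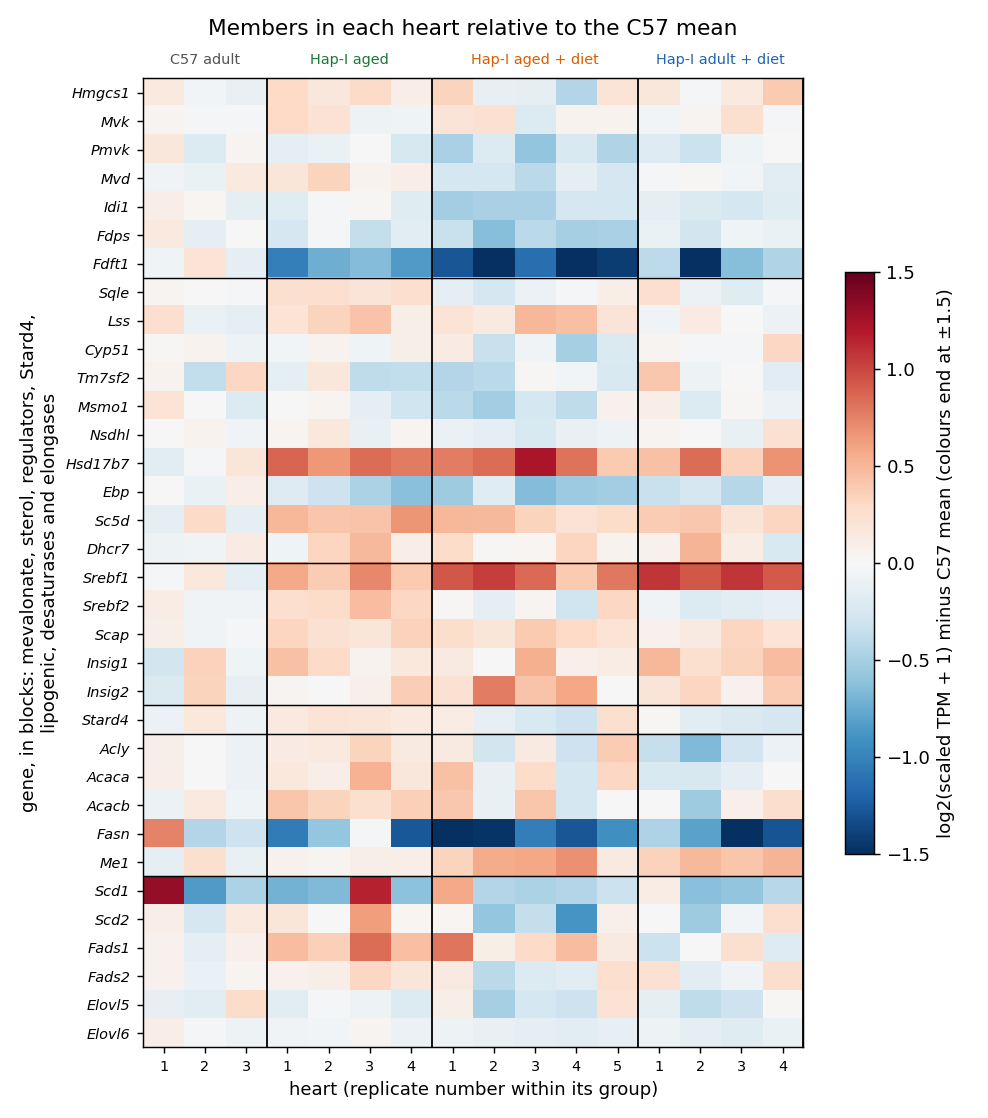
Level of each gene (rows, in blocks by role) in each of the 16 hearts (columns, by group), as log2(scaled TPM + 1) minus the mean of the 3 C57 hearts. Srebf1 and Hsd17b7 are above the C57 mean in all 13 Hap-I hearts, and Fdft1 is below it in all 13.

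The widest differences lay between aged western-diet Hap-I hearts and adult C57 hearts, where 5 of the 31 genes rose and 7 fell. These 12 are 38.7% of the genes tested, and 21.9% of all genes passed (12.3% higher and 9.57% lower). The groups did not overlap for 11 of the 31 (35.5%, against 23.4% of all genes). Srebf1, Scap, Hsd17b7, Sc5d and Me1 rose, and Pmvk, Mvd, Idi1, Fdps, Fdft1, Ebp and Fasn fell. The median log2 fold change of the 31 genes was -0.06, close to the 0.00 of all genes after scaling, since members moved both ways. The count was 7 without C57 replicate 1, 6 without C57 replicate 3, and 6 when the 2 hearts with the most Adipoq were left out. Of all genes, 12%, 11% and 10.4% passed in these fits, in that order, also fewer than the 21.9% with all hearts.

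Aged Hap-I hearts without the diet had 5 of 31 genes called against C57 (16.1%), where 11.2% of all genes passed. Hsd17b7, Sc5d, Srebf1 and Scap rose and Ebp fell (all genes: 7.17% higher and 4.06% lower), and 11 of 31 (35.5%) did not overlap, against 34.1% of all genes. Without C57 replicate 1 or C57 replicate 3, 1 gene remained called in each case, Hsd17b7, where 3.47% and 3.26% of all genes passed. Adult western-diet Hap-I hearts had 1 gene called against C57, Srebf1, which rose (3.23%, where 3.45% of all genes passed and 1.95% rose). It was joined by 3 others without C57 replicate 2, where 3.71% of all genes passed. In that comparison 8 of 31 (25.8%) did not overlap, against 18% of all genes. These 3 comparisons share the same 3 C57 hearts.

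Within the Hap-I groups few members passed. The diet in aged hearts (5 with and 4 without) gave 0 called members in limma, where 0.166% of all genes passed, and 9 of the 31 had an unadjusted p under 0.05, 2 higher and 7 lower with the diet, where 15.9% of all genes had one. With this diet 26 of the 31 had a negative value (49.4% of all genes did), the median was -0.17, and 4 of 31 (12.9%) did not overlap, against 7.14%. The transcript length correction and the smaller pseudocount each called 1 member, Mvd, where 0.564% and 0.184% of all genes passed. Without aged western-diet replicate 5, 3 members passed (0.806% of all genes), and without adult western-diet replicate 2, 2 did (0.622% of all genes). Age under the diet (5 aged and 4 adult) gave 0 called members in limma, where 2.39% of all genes passed, and 9 with an unadjusted p under 0.05, 2 higher and 7 lower in the aged hearts, where 19.7% of all genes had one. In that comparison 1 of 31 (3.23%) did not overlap, Fdps, against 6.31%. Aged hearts without the diet against adult hearts with it (4 and 4), where age and diet cannot be told apart, gave 1 called member, Srebf2, which was higher in the aged hearts (3.23%, where 2.14% of all genes passed and 1.25% were higher). In that comparison 9 of 31 (29.0%) did not overlap, against 16% of all genes.

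**Figure D3:**
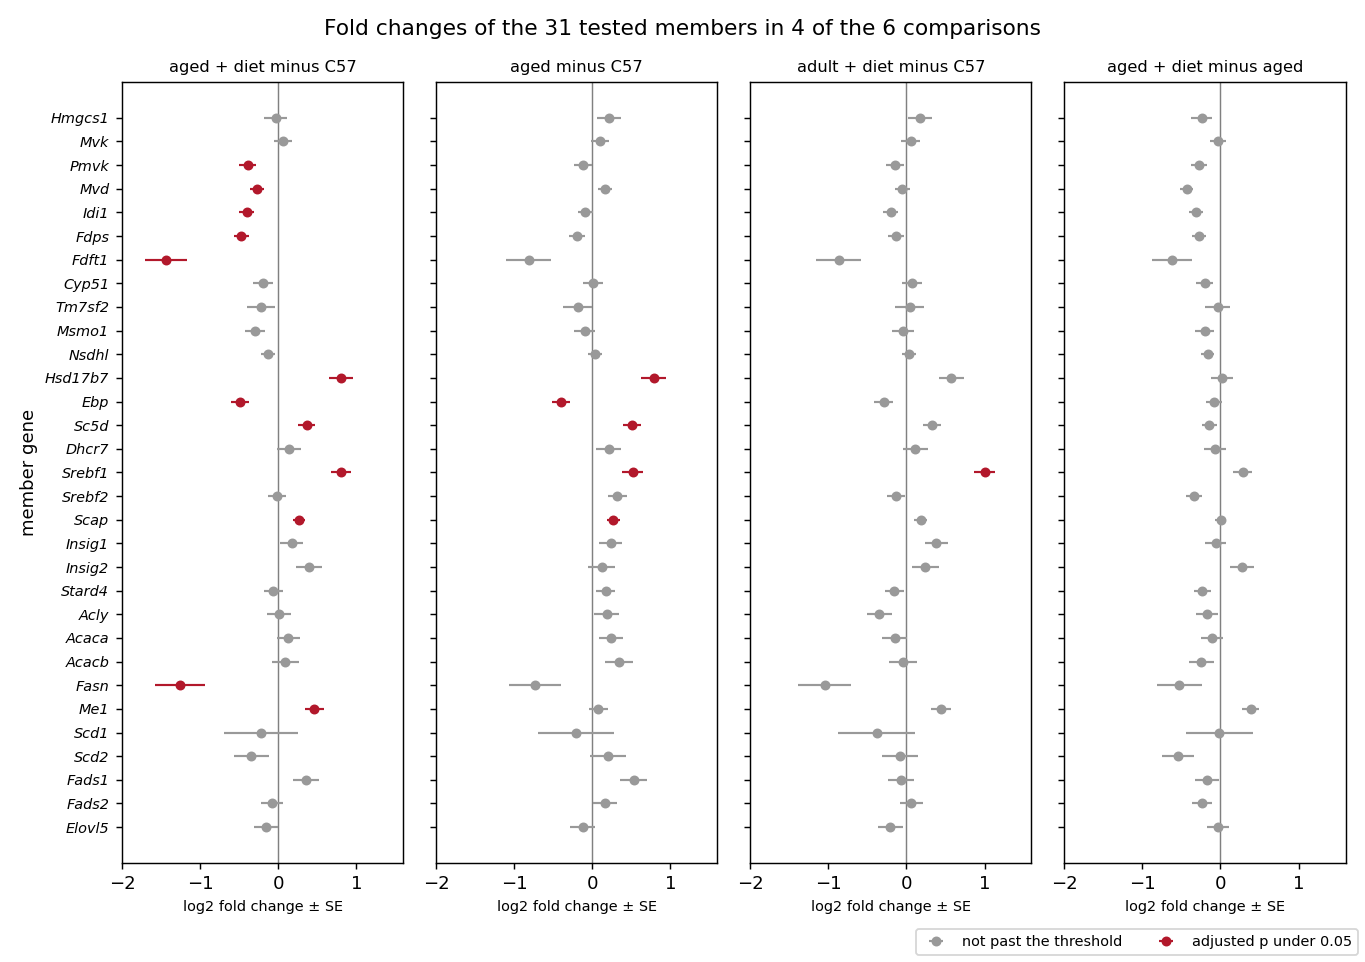
Log2 fold change ± SE (x axis) of the 31 tested genes (y axis) in 4 of the 6 comparisons; red marks an adjusted p under 0.05 and grey the others. The mevalonate genes sit at or below 0.06 in the aged western-diet panel, down to -1.44 for Fdft1, while Srebf1 is at 0.52 to 1.00 in the 3 panels against C57.

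Among the regulators, Srebf1, which encodes SREBP-1, was higher in every Hap-I group than in C57 hearts. It had 4.52, 5.23 and 4.04 scaled TPM in C57 hearts, 7.26, 6.24, 8.22 and 6.33 in aged hearts, 9.60, 10.4, 9.08, 6.30 and 8.66 in aged western-diet hearts, and 10.8, 9.66, 10.7 and 9.55 in adult western-diet hearts. No Hap-I heart fell within the C57 range, and aged western-diet replicate 4 was the lowest of its group. Against C57 the log2 fold change was 1.00 ± 0.13 in adult western-diet hearts (limma adjusted p = 0.00118), 0.80 ± 0.13 in aged western-diet hearts (adjusted p = 0.000944) and 0.52 ± 0.13 in aged hearts (adjusted p = 0.0246). The first and the second held without any 1 library, with adjusted p up to 0.00976 and 0.00909, and were lost without scaling (0.0958 and 0.0522). The last was lost without C57 replicate 1 or 3, or aged replicate 1 or 3. It was also lost without scaling and when the 2 hearts with the most Adipoq were left out. Among Hap-I groups, aged hearts without the diet and adult hearts with it did not overlap, but the difference of -0.49 ± 0.12 did not pass (limma adjusted p = 0.0542), and the diet in aged hearts gave 0.28 ± 0.12 (adjusted p = 0.262). Srebf1 lies at chr11:60199089-60222581 on the minus strand (GENCODE vM21, GRCm38).

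Srebf2, which encodes SREBP-2, had another order of levels. It had 2.92, 2.50 and 2.51 scaled TPM in C57 hearts, 3.32, 3.38, 4.00 and 3.51 in aged hearts, 2.68, 2.32, 2.75, 1.95 and 3.52 in aged western-diet hearts, and 2.50, 2.15, 2.27 and 2.34 in adult western-diet hearts. The aged hearts without the diet lay above all C57 and all adult western-diet hearts, and aged western-diet replicate 5 was the one heart on the diet that reached their range. Against adult western-diet hearts the log2 fold change was 0.46 ± 0.11 (limma adjusted p = 0.0426). This call was lost on leaving out any of 10 single libraries, with adjusted p up to 0.136, and in 4 of the 8 other alternatives. With the diet in aged hearts Srebf2 had a value of -0.33 ± 0.10 (limma adjusted p = 0.149), and against C57 the aged hearts had 0.32 ± 0.12 (adjusted p = 0.0874).

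Scap, the escort protein, averaged 4.75 ± 0.298 scaled TPM (SD, n = 3) in C57 hearts, 5.93 ± 0.366 (n = 4) in aged, 5.94 ± 0.395 (n = 5) in aged western-diet and 5.54 ± 0.503 (n = 4) in adult western-diet hearts. Its log2 fold change against C57 was 0.27 ± 0.08 in both aged groups (limma adjusted p = 0.0482 without and 0.0251 with the diet). The first of these was lost on leaving out any of 11 single libraries and in 5 of the 8 other alternatives. The second was lost without C57 replicate 2, C57 replicate 3 or aged western-diet replicate 3, and also without scaling, with quantile normalization or with only the groups compared. Insig1 and Insig2 encode the proteins that retain SCAP, and neither passed in a comparison. Insig1 averaged 4.70 ± 1.29 scaled TPM in C57, 5.63 ± 0.771 in aged, 5.37 ± 0.990 in aged western-diet and 6.34 ± 0.596 in adult western-diet hearts, and its 6 log2 fold changes ran from -0.21 to 0.38. Insig2 was the third most abundant of the genes, with 17.4 ± 3.92, 18.8 ± 2.45, 23.2 ± 4.96 and 20.5 ± 2.11 scaled TPM in the same order of groups. It came nearest to a call in aged western-diet hearts against C57, at 0.40 ± 0.16 (limma adjusted p = 0.0955).

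The mevalonate pathway builds isoprenoid units from acetyl-CoA and joins them up to squalene, and 5 of its 7 tested genes fell in aged western-diet hearts against C57 (71.4%, where 9.57% of all genes fell). The 7 had a median log2 fold change of -0.39 there. Without C57 replicate 1, or without C57 replicate 3, only Idi1, Fdps and Fdft1 of the 7 stayed called. Only Fdps and Fdft1 did without the 2 hearts with the most Adipoq, and only Fdft1 without scaling. Between aged western-diet and aged hearts all 7 had negative values (49.4% of all genes did), with a median of -0.28, and none passed in limma. Against C57, 0 of the 7 passed in aged hearts without the diet or in adult western-diet hearts, and their medians were -0.09 and -0.13.

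Fdft1, the squalene synthase that commits the pathway to sterols, differed most. It had 9.54, 11.7 and 8.92 scaled TPM in C57 hearts, 4.38, 5.59, 6.01 and 5.11 in aged hearts, 3.50, 2.27, 4.01, 2.65 and 3.10 in aged western-diet hearts, and 7.39, 1.77, 6.08 and 7.04 in adult western-diet hearts. The C57 hearts lay above all others, the aged western-diet hearts lay below all aged hearts, and adult western-diet replicate 2 stood apart from its group. Against C57 the log2 fold change was -1.44 ± 0.27 in aged western-diet hearts (limma adjusted p = 0.00273). It passed without any 1 library, with adjusted p up to 0.0138, and under every other alternative run, with adjusted p up to 0.0217. The values of -0.82 ± 0.29 in aged hearts and -0.86 ± 0.29 in adult western-diet hearts did not pass (limma adjusted p = 0.0785 and 0.0998). Fdft1 (chr14:63145150-63179578, minus strand) has 31.9% of its 31-base words in common with other genes, most with Ctsb, so its level is uncertain.

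Fdps, the farnesyl diphosphate synthase, had 15.7, 12.7 and 14.2 scaled TPM in C57 hearts, 11.7, 14.0, 10.8 and 12.5 in aged hearts, 11.0, 8.71, 10.4, 9.69 and 9.83 in aged western-diet hearts, and 13.2, 11.5, 13.5 and 13.1 in adult western-diet hearts. All 5 aged western-diet hearts were below every C57 and every adult western-diet heart. In aged western-diet hearts it fell against C57 with a log2 fold change of -0.47 ± 0.10 (limma adjusted p = 0.00419). This call passed without any 1 library and was lost without scaling (adjusted p = 0.156). Against adult western-diet hearts the value of Fdps was -0.34 ± 0.09 (adjusted p = 0.0553). Of its words 27.9% are shared with other genes.

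Idi1, the isomerase that makes dimethylallyl diphosphate, had 2.32, 2.18 and 1.84 scaled TPM in C57 hearts, 1.74, 2.05, 2.16 and 1.75 in aged hearts, 1.17, 1.21, 1.21, 1.61 and 1.58 in aged western-diet hearts, and 1.82, 1.68, 1.59 and 1.74 in adult western-diet hearts. The aged western-diet hearts lay below all C57 and all aged hearts. Against C57 the log2 fold change was -0.40 ± 0.09 (limma adjusted p = 0.00762). That call was lost without scaling and when both hearts rich in Adipoq were left out. With the diet in aged hearts it was -0.31 ± 0.09 (limma adjusted p = 0.107). Idi1 shares 27.1% of its words with other genes, most with the gene Gm13502.

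Mvd, the decarboxylase that makes isopentenyl diphosphate, came nearest to a call for the diet. It had 2.39, 2.28 and 2.90 scaled TPM in C57 hearts, 2.97, 3.42, 2.64 and 2.75 in aged hearts, 1.92, 1.93, 1.66, 2.17 and 1.94 in aged western-diet hearts, and 2.47, 2.56, 2.41 and 2.13 in adult western-diet hearts. All 5 aged western-diet hearts were below all 4 aged hearts, and below all C57 hearts. The log2 fold change with the diet in aged hearts was -0.43 ± 0.08 (limma adjusted p = 0.0512), and that against C57 was -0.27 ± 0.09 (adjusted p = 0.0464), a call that leaving out any of 12 single libraries ended, as did 5 of the 8 other alternatives. Mvd (chr8:122433601-122443422, minus strand) shares no 31-base word with another gene.

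Pmvk, the phosphomevalonate kinase, averaged 10.1 ± 1.45 scaled TPM (SD, n = 3) in C57, 9.17 ± 0.713 (n = 4) in aged, 7.46 ± 0.986 (n = 5) in aged western-diet and 9.02 ± 0.948 (n = 4) in adult western-diet hearts. Its fall in aged western-diet hearts against C57 was -0.39 ± 0.11 on the log2 scale (limma adjusted p = 0.0227), with groups that overlapped, and it was lost without C57 replicate 1, without C57 replicate 3 or without aged western-diet replicate 3. It was also lost without scaling, with the length correction, with a sex covariate, with only the groups compared, and without both hearts rich in Adipoq. Hmgcs1, the synthase that feeds the pathway, and Mvk, the mevalonate kinase, did not pass in any comparison. The 6 log2 fold changes of Hmgcs1 ran from -0.24 to 0.21 and those of Mvk from -0.03 to 0.10.

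In the sterol branch, which turns squalene into cholesterol, 8 of 10 genes were tested, and 2 rose and 1 fell in each of the comparisons of the aged groups with C57. That is 37.5% of the 8 each time, where 11.2% of all genes passed without the diet and 21.9% with it. Hsd17b7, a ketosteroid reductase that acts in the removal of methyl groups from sterols, rose. It had 1.36, 1.58 and 1.98 scaled TPM in C57 hearts, 3.80, 3.13, 3.71 and 3.51 in aged hearts, 3.49, 3.68, 5.15, 3.62 and 2.44 in aged western-diet hearts, and 2.57, 3.70, 2.35 and 3.20 in adult western-diet hearts. All 13 Hap-I hearts were above all C57 hearts. Its log2 fold change against C57 was 0.81 ± 0.15 in aged western-diet hearts (limma adjusted p = 0.00266) and 0.78 ± 0.16 in aged hearts (adjusted p = 0.0088), and 0.58 ± 0.16 in adult western-diet hearts did not pass (adjusted p = 0.0612). The first passed under every alternative run, and the second was lost without both hearts rich in Adipoq. Hsd17b7 lies at chr1:169949535-169969241 on the minus strand.

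Ebp, the sterol isomerase, moved the other way. It averaged 8.17 ± 0.614 scaled TPM (SD, n = 3) in C57, 5.98 ± 0.915 (n = 4) in aged, 5.59 ± 0.872 (n = 5) in aged western-diet and 6.52 ± 0.621 (n = 4) in adult western-diet hearts. Each of the 13 Hap-I hearts was below each C57 heart. The log2 fold change against C57 was -0.48 ± 0.12 in aged western-diet hearts (limma adjusted p = 0.009) and -0.40 ± 0.12 in aged hearts (adjusted p = 0.0446). The first was lost without C57 replicate 3 at 0.0509 and without scaling at 0.0964. The second was lost without any of 10 single libraries and in 6 of the 8 other alternatives. Sc5d, the lathosterol desaturase, rose, with means of 3.26 ± 0.764, 5.00 ± 0.484, 4.44 ± 0.468 and 4.30 ± 0.333 scaled TPM in the same order of groups. Its log2 fold change against C57 was 0.51 ± 0.11 in aged hearts (limma adjusted p = 0.0134) and 0.36 ± 0.11 in aged western-diet hearts (adjusted p = 0.0271). Both were lost on leaving out C57 replicate 1 or C57 replicate 3. The call in aged hearts was also lost without scaling and without both hearts of highest Adipoq. That in aged western-diet hearts was also lost without aged western-diet replicate 1 or 2 and in 6 of the 8 other alternatives. The other 5 tested, Cyp51, Tm7sf2, Msmo1, Nsdhl and Dhcr7, passed in no comparison, and their log2 fold changes ran from -0.30 for Msmo1 to 0.21 for Dhcr7. Of the untested, Sqle, the squalene epoxidase, had 0.380 to 0.452 scaled TPM in C57 and 0.619 to 0.685 in aged hearts. In aged and adult western-diet hearts it had 0.182 to 0.511 and 0.244 to 0.688. Lss had 0.289 to 1.01 over all 16 hearts. Stard4, which carries sterols between membranes, passed in no comparison, with log2 fold changes from -0.23 to 0.32.

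The lipogenic enzymes make malonyl-CoA, NADPH and palmitate, and among 5 tested Me1 rose and Fasn fell in aged western-diet hearts against C57. Me1, the cytosolic malic enzyme that supplies NADPH, was the most abundant of the 34 genes. It stood at 38.7, 50.8 and 39.6 scaled TPM in C57 hearts, 44.8, 44.1, 45.4 and 45.9 in aged hearts, 54.3, 63.4, 64.5, 69.5 and 47.2 in aged western-diet hearts, and 54.7, 60.2, 57.5 and 61.5 in adult western-diet hearts. The aged hearts lay within 44.1 to 45.9, and every heart of both western-diet groups lay above them. Against C57 the log2 fold change was 0.46 ± 0.12 in aged western-diet hearts (limma adjusted p = 0.0126), lost without C57 replicate 1 or C57 replicate 3 and in 3 of the 8 other alternatives. Values of 0.44 ± 0.12 for adult western-diet hearts against C57 and 0.39 ± 0.11 for the diet in aged hearts did not pass (limma adjusted p = 0.0604 and 0.113). Me1 (chr9:86581371-86695953, minus strand) shares 36.9% of its words with other genes, most with Gm7049.

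Fasn, the fatty acid synthase, had a lower mean in each Hap-I group than in C57 hearts, and only the aged western-diet group passed. It had 10.1, 3.88 and 4.35 scaled TPM in C57 hearts, 2.20, 3.41, 5.56 and 1.73 in aged hearts, 1.25, 1.38, 2.22, 1.71 and 2.49 in aged western-diet hearts, and 3.79, 2.79, 1.15 and 1.69 in adult western-diet hearts. C57 replicate 1 was the highest of the 16, and all hearts on the diet were below all C57 hearts. Aged replicate 3, at 5.56, lay above C57 replicates 2 and 3. The log2 fold change of aged western-diet hearts against C57 was -1.26 ± 0.32 (limma adjusted p = 0.0124). Without C57 replicate 1 it was -0.88 and did not pass (adjusted p = 0.0861). The call was also lost when the 2 hearts with the most Adipoq were left out (limma adjusted p = 0.0552). The values for adult western-diet and aged hearts against C57, -1.05 ± 0.33 and -0.73 ± 0.33, did not pass (limma adjusted p = 0.0881 and 0.168). Fasn (chr11:120805846-120824547, minus strand) shares no 31-base word with another gene.

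The sum of white adipocyte markers was highest in the same hearts as Fasn. Adipoq, which encodes the fat cell hormone adiponectin, had 3.65, 0.149 and 1.21 scaled TPM in C57 hearts, 0.356, 0.10, 4.53 and 0.299 in the aged hearts, and at 0.796 or less in the 9 hearts on the diet. C57 replicate 1 and aged replicate 3 were the highest. Both were also the highest for all 4 atrial markers, with Myl7 at 1831 and 1133 scaled TPM. Of the brown adipocyte markers, Ucp1 was highest in them too, at 6.19 and 8.79, while Cidea and Cox8b were not. The 7 markers of the list summed to 2.36 to 18.6 scaled TPM in C57 hearts, 0.230 to 22.4 in aged, 0.567 to 3.09 in aged western-diet and 0.366 to 3.19 in adult western-diet hearts, and Plin1 was at 0 in 12 of the 16 hearts. Over the 16 hearts Fasn and Adipoq correlated with Pearson r = 0.77 (permutation adjusted p = 0.00522 over 6 pairs, raw p = 0.00093) and Spearman rho = 0.44 (permutation adjusted p = 0.266, raw p = 0.0888). For Scd1 and Adipoq the values were r = 0.83 (permutation adjusted p = 0.00522, raw p = 0.00174) and rho = 0.36 (permutation adjusted p = 0.341, raw p = 0.171). Without C57 replicate 1 and aged replicate 3 the coefficients r were 0.44 and 0.26 (permutation adjusted p = 0.339 and 0.376), and neither passed. With group means removed and all 16 hearts kept, r was 0.72 and 0.90 (permutation adjusted p = 0.0033 and 6e-05) and rho 0.69 and 0.70 (permutation adjusted p = 0.0128 for both). The parts of adipocyte and of atrial tissue in the level of Fasn and Scd1 were not tested.

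**Figure D4:**
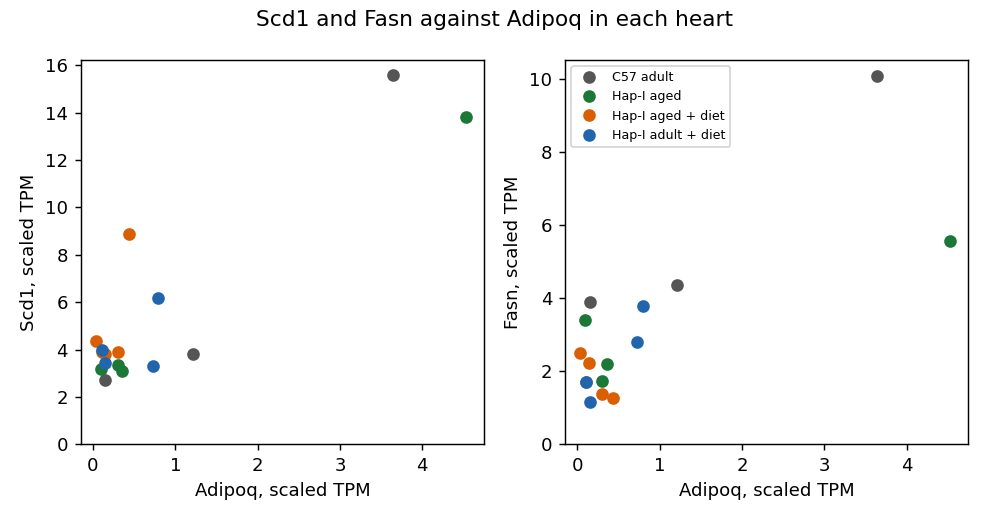
Scd1 and Fasn (y axes, scaled TPM) against Adipoq (x axis, scaled TPM), 1 point per heart, coloured by group. The 2 hearts above 3 scaled TPM of Adipoq, C57 replicate 1 at 3.65 and aged replicate 3 at 4.53, have the 2 highest values of Scd1, 15.6 and 13.8, and of Fasn, 10.1 and 5.56.

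Srebf1 and Fasn, regulator and target in the textbook pathway, ran in opposite directions over the 16 hearts (r = -0.59, permutation adjusted p = 0.0326, raw p = 0.0163; rho = -0.56, permutation adjusted p = 0.168, raw p = 0.028). With group means removed the coefficient was 0.08 (permutation adjusted p = 0.933), and without C57 replicates 1 and 3 it was -0.31 (permutation adjusted p = 0.339), so the relation rests on differences between the groups and on these C57 hearts. Srebf1 and Scd1 had r = -0.05 and rho = 0.16, Insig1 and Hmgcs1 0.20 and 0.18, and Insig1 and Sqle 0.16 and 0.17 (permutation adjusted p = 0.848, 0.665 and 0.665 for r and 0.539 for each rho).

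Acacb, the carboxylase of the mitochondrial surface, was the second most abundant gene, with 30.4 ± 2.94 scaled TPM (SD, n = 3) in C57, 38.7 ± 2.05 (n = 4) in aged, 33.0 ± 7.24 (n = 5) in aged western-diet and 29.9 ± 6.69 (n = 4) in adult western-diet hearts. It passed in no comparison, with log2 fold changes from -0.25 to 0.39. Acly, the ATP citrate lyase, and Acaca, the cytosolic carboxylase, passed in none either, and 33.5% of the words of Acaca are shared with other genes, most with Gm5182, so its level is uncertain. Both were higher in all aged hearts without the diet than in all adult western-diet hearts, at 0.53 ± 0.15 (limma adjusted p = 0.0658) and 0.39 ± 0.15 (adjusted p = 0.146).

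Of the desaturases and elongases, 5 of 6 were tested and none passed in a pairwise comparison. Fads1, the delta-5 desaturase of polyunsaturated fatty acids, differed among the 4 groups (limma F test, adjusted p = 0.0369). It averaged 2.82 ± 0.324 scaled TPM (SD, n = 3) in C57, 4.55 ± 0.861 (n = 4) in aged, 3.96 ± 1.07 (n = 5) in aged western-diet and 2.68 ± 0.638 (n = 4) in adult western-diet hearts. The aged hearts lay above all C57 and all adult western-diet hearts, with log2 fold changes of 0.53 ± 0.17 and 0.60 ± 0.16 that did not pass (limma adjusted p = 0.0596 and 0.0618). Scd1, the stearoyl-CoA desaturase, had 15.6, 2.70 and 3.80 scaled TPM in C57 hearts, 3.08, 3.20, 13.8 and 3.36 in aged hearts, 8.88, 3.90, 3.80, 3.90 and 4.34 in aged western-diet hearts, and 6.16, 3.31, 3.42 and 4.00 in adult western-diet hearts. The groups overlapped, and a single heart was high in each. Its log2 fold changes ran from -0.38 to 0.18, with SE of 0.43 to 0.49, and their 95% intervals together reached from -1.42 to 1.14. Scd2, Fads2 and Elovl5 had values from -0.55, for Scd2 with the diet in aged hearts (limma adjusted p = 0.216), to 0.29.

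Of 64 other genes around these pathways, 53 were tested, and 10 passed in aged western-diet hearts against C57 (18.9%, 6 higher and 4 lower), below the 21.9% of all genes. Against C57, 4 passed in aged hearts (7.55%, where 11.2% of all genes did) and 3 in adult western-diet hearts (5.66%, where 3.45% did). Between aged hearts without the diet and adult hearts with it 1 passed (1.89%, where 2.14% did). For the diet and for age under the diet 0 passed in limma (0.166% and 2.39% of all genes). The alternative fits, with those that left out 1 library, were read for the members alone. The calls of these other genes were therefore not checked in them. Ppargc1b, a coactivator that works with SREBP-1, rose against C57 in all 3 Hap-I groups, by 1.07 ± 0.15 in aged western-diet (limma adjusted p = 0.000411), 0.72 ± 0.15 in aged (adjusted p = 0.0109) and 0.61 ± 0.15 in adult western-diet hearts (adjusted p = 0.0429). Tecr, the reductase that ends each round of fatty acid elongation, fell in the same 3, with log2 fold changes of -0.82 ± 0.11, -0.54 ± 0.12 and -0.46 ± 0.12 (limma adjusted p = 0.000427, 0.0128 and 0.0462). Abca1, the cholesterol efflux pump and LXR target, rose in aged western-diet and aged hearts against C57, by 0.91 ± 0.21 and 0.77 ± 0.22 (limma adjusted p = 0.00802 and 0.0387). Lpcat3, a phospholipid acyltransferase and LXR target, was highest in adult western-diet hearts, at 19.9, 16.0, 18.1 and 16.1 scaled TPM against 11.9, 14.2 and 12.2 in C57 hearts. It passed there against C57, at 0.43 ± 0.10 (limma adjusted p = 0.0333), and aged hearts were lower than these hearts by a log2 fold change of -0.51 ± 0.09 (adjusted p = 0.0152). Of the 7 tested genes of LXR and its targets, 1 passed in each comparison with C57 (14.3%). All genes passed at 11.2%, 21.9% and 3.45% in aged, aged western-diet and adult western-diet hearts. In that order, 3, 5 and 6 of the 7 had positive values and 4, 2 and 1 negative ones. In aged western-diet hearts against C57, Me2 and Agpat3 rose by 0.28 and 0.35 and Tmed2 had a log2 fold change of -0.41 (limma adjusted p = 0.0102, 0.0107 and 0.014). Me2, the mitochondrial malic enzyme, also rose in aged hearts against C57, by 0.26 (limma adjusted p = 0.0264).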

How the data were processed

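Polyadenylated RNA of 16 hearts was sequenced from stranded libraries, per the labels' protocols. The authors deposited TPM per gene, per the file header; kallisto, DESeq2 and build GRCm38 are named, per the submitters' processing notes, without versions or roles. kallisto divides reads that match several genes by an estimate. TPM keep no depth, so no counting error is given. Libraries were scaled by the median of ratios (factors 0.682 to 1.239), and the 11415 genes that reached 1 TPM in 3 or more libraries were tested with limma 3.58.1 in R 4.3.3 on log2(scaled TPM + 1), with a variance trend and 1 mean per group. Two-sided p-values were adjusted over all genes tested within each of 6 contrasts and the F test. The limma fit was also run on simulated log values, drawn independently for each gene and heart. They held no library-wide differences, so that run cannot speak to scaling or transcript length. Gene pairs used 100000 permutations (scipy 1.17.1). Coordinates and shared 31-base words come from GENCODE vM21. The members and lists were chosen with earlier results of these data known. Values are given in full for members called in a contrast or the F test, the 5 regulators and the 3 most abundant members, and for at most 6 called genes of other lists per comparison, by smallest p; group ranges or per-heart values of other members were added after they were seen. Alternatives were no scaling, quantile normalization, a pseudocount of 0.1, no filter, a sex covariate, a transcript length correction, only the groups compared, each library left out, and, added after the data were seen, both hearts of highest Adipoq left out. That the hearts are from separate animals is stated by the series design.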

Additional observations from a re-analysis of the deposited data

Results flagged for a closer look

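Within groups of 4 or 5 hearts, a heart stood far from the rest of its group in 7 of 102 combinations of a member and a group (6.86%), where chance alone would be expected to set apart about 1 in 20. Adult western-diet replicate 2 had 1.77 scaled TPM of Fdft1, against 6.08 to 7.39 in the other 3. Aged western-diet replicate 2 had 7.10 of Ebp against 4.85 to 5.39, and aged western-diet replicate 3 had 7.11 of Insig1 against 4.61 to 5.16. Aged replicate 3, the heart with the most Adipoq, had 11.2 of Acly against 9.56 to 9.68, 2.22 of Acaca against 1.40 to 1.52 and 13.8 of Scd1 against 3.08 to 3.36. Aged western-diet replicate 1 had 8.88 of Scd1 against 3.80 to 4.34, with Adipoq at 0.433 scaled TPM. The part of adipocyte transcripts in these values was not tested.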

How the results depend on the processing

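Without scaling, all genes had a median log2 fold change of -0.16 for the diet and 0.11 for age under the diet. It was 0.27 for aged hearts without the diet against adult western-diet hearts, called aged against adult western-diet hearts below. For aged, adult western-diet and aged western-diet hearts against C57 it was 0.13, -0.13 and -0.03. In that order of comparisons the called members then numbered 0, 0, 0, 1, 0 and 3, and 1 in the F test. All genes then passed at 1.97% in aged and 5.38% in aged western-diet hearts against C57. Of the 19 calls over all comparisons 4 were kept without scaling and 7 without both hearts of highest Adipoq, where the counts were 3 in the F test and 0, 0 and 6 for aged against adult western-diet hearts, aged against C57 and aged western-diet against C57. No filter gave 7 in the F test, 0 for aged against adult western-diet hearts and 3 for aged against C57, and a sex covariate gave 4, 0 and 3 in the same order. For aged against C57, 4.24% of all genes passed with no filter and 10.3% with the sex covariate. Quantile normalization gave 2 for aged against adult western-diet hearts, 3 for aged against C57 and 2 for adult western-diet against C57 (2.04%, 8.7% and 3.28% of all genes). In the last of these the pseudocount of 0.1 also gave 2 (3.77% of all genes). That pseudocount and the length correction each gave 1 for the diet (0.184% and 0.564% of all genes). With only the groups compared the counts were 4, 9 and 7 for aged against adult western-diet hearts, aged against C57 and aged western-diet against C57. All genes then passed at 3.7%, 21.3% and 12.1%. Leaving out 1 library at a time gave 4 to 13 in the F test, 0 to 3 for the diet, 0 to 1 for age, 0 to 3 for aged against adult western-diet hearts, and 1 to 6, 1 to 4 and 6 to 13 for aged, adult western-diet and aged western-diet hearts against C57. In these last 3 comparisons all genes passed at 3.26% to 12.9%, 0.683% to 5.04% and 11.0% to 23.6%. No call reversed its direction under these alternatives. For Srebf1 with Fasn, r was 0.0775 with group means removed and -0.3074 without the 2 farthest hearts, where Fasn with Adipoq gave 0.4395 and Scd1 with Adipoq 0.2553. The cause of these changes was not tested. No paired analysis was possible because the replicates carry no numbers shared between groups. TPM give no depth, so the precision of low genes such as Sqle, Lss and Elovl6 is unknown.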
